A study of Arabidopsis thaliana with 4 samples.

Results

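JAL33 (AT3G16450) and JAL34 (AT3G16460) are neighbouring genes on chromosome 3 of Arabidopsis thaliana that encode jacalin-related lectins. They were chosen as a tandem pair for their levels in shoot apices kept in short days and shoot apices moved to long days, and each was followed through its brightest probe set paired with 1 gene. Both genes had 1 such probe set, so no choice between probe sets had to be made. They are 2 of the 13355 genes that the array's annotation pairs with a probe set of their own.

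Total RNA from dissected shoot apices of wild-type Col-0 plants was hybridised to oligonucleotide arrays, 1 array per sample. The first group, SD30, had 30 days of short days, and the second, SD30_LD7, had 30 days of short days and then 7 long days. Each group held 2 samples, which the labels number as first and second replica. Whether these were grown apart is not said, so the 2 samples of a group may differ for technical reasons alone. A p-value or SE here rests only on such differences. For each probe set they were weighed together with those of other probe sets of similar brightness. The shifted plants were also 7 days older, so day length and age cannot be told apart.

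Jacalin-related lectins are carbohydrate-binding proteins built from 1 or more jacalin domains, and the crucifer family has many of them. Several, JAL33 and JAL34 among them, are known as partners of PYK10, a beta-glucosidase stored in ER bodies, which are spindle-shaped compartments of the endoplasmic reticulum best known from seedlings and roots. When cells break, PYK10 and these lectins meet and form large complexes, and the beta-glucosidase can then act on its substrates. ER bodies are a trait of the order that includes Arabidopsis and are linked to defence against herbivores.

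The 4 arrays had been scaled by the authors to a common level, with medians of 207 to 220.5. Arrays of the same group correlated at 0.985 in SD30 and 0.987 in SD30_LD7 and arrays of different groups at 0.942 to 0.948. These correlations are over 15922 probe sets, and probe sets are not replicates. As a measure related to RNA integrity, an actin control had a 3′ signal 5.72 and 6.51 times its 5′ signal in SD30 and 4.64 and 8.27 times in SD30_LD7. The ratio differed more between the SD30_LD7 arrays than between the SD30 arrays. No limit was set on it, and its part in the lectin values was not tested. Of 10 shoot meristem markers the annotation names 2, and both were above the floor on all arrays, CLV3 at intensities of 72.6 to 103.5 and ULT1 at 986 to 1163. With this number of arrays the precision of all values is limited.

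JAL34 had an intensity of 808 on the array of SD30 replicate 1 and 741 on that of replicate 2. After the shift it had 224 on the array of SD30_LD7 replicate 1 and 221 on that of replicate 2. Both shifted arrays were low and nearly equal, and the groups did not overlap. The share of all probe sets without overlap was not counted, so this separation of 2 against 2 arrays does not set JAL34 apart. The group means were 774 ± 47.5 in SD30 and 223 ± 1.98 in SD30_LD7 (intensity, mean ± SD, n = 2), and 28.8 percent of the short day mean was left after the shift. On the log2 scale the difference, shifted minus short days, was -1.80 ± 0.13 (SE of the limma model), or 3.47-fold lower. JAL34 was chosen on this contrast, so the value is a description and no p-value is given.

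JAL33 had an intensity of 174 on the array of SD30 replicate 1 and 204 on that of replicate 2, against 74.8 and 46.8 on those of SD30_LD7 replicates 1 and 2. Again both shifted arrays lay below both short day arrays, which does not set JAL33 apart either, as that share was not counted. The means were 189 ± 21.2 and 60.8 ± 19.8 (n = 2), so that 32.2 percent of the short day level was left. The log2 difference was -1.67 ± 0.27, or 3.18-fold lower, likewise a description with no p-value. In RNA from whole apices, fewer cells of a type and less RNA per cell cannot be told apart.

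**Figure D1:**
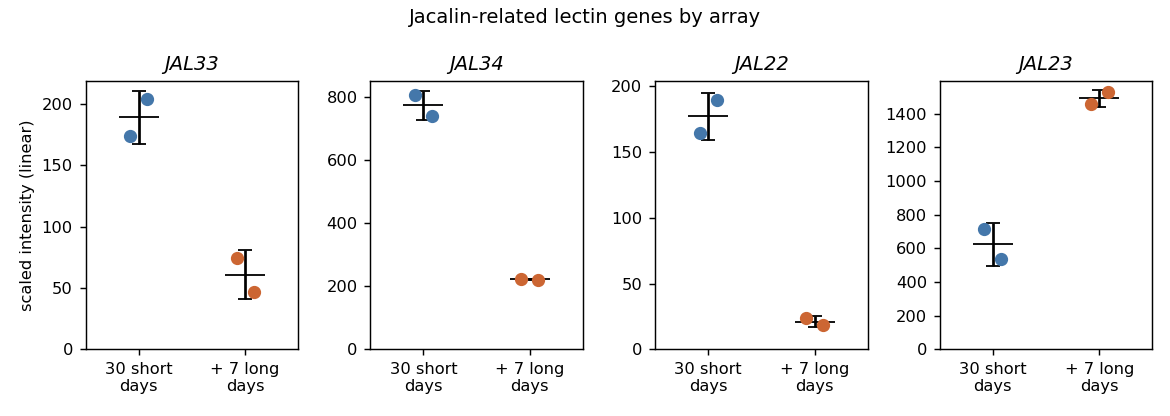
Scaled intensity (linear axis from 0) of JAL33, JAL34 and the 2 other jacalin-related lectin genes that were found by name and had values. Apices were from 30 short days (blue) and from 30 short days plus 7 long days (orange). Points are single arrays, the horizontal mark is the group mean and the bar the SD. JAL33, JAL34 and JAL22 were lower on both shifted arrays and JAL23 was higher, and the axes differ because levels of different probe sets are not compared.

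The pair differed in how closely replicates matched. Between the SD30_LD7 arrays JAL33 differed 1.60-fold, a log2 gap of 0.68, while the 1848 tested probe sets of similar mean brightness had a median gap of 0.23. For JAL34 the same arrays differed 1.01-fold, a log2 gap of 0.02 against a median of 0.14 over 3597 probe sets of its brightness. In SD30 the gap was 0.23 for JAL33 and 0.13 for JAL34, close to the medians of 0.26 and 0.14 at their brightness. The higher SD30 array was replicate 2 for JAL33 and replicate 1 for JAL34. With gaps of this common size, that order cannot tell whether the genes followed each other within the group.

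Setting each SD30 array against each SD30_LD7 array gave 4 ratios per gene. They ran from 3.30 to 3.65 for JAL34 and from 2.32 to 4.36 for JAL33, so the size of the JAL34 difference varied less with the arrays chosen. The JAL34 difference minus the JAL33 difference was -0.13 ± 0.30 on the log2 scale, smaller than its SE. That SE combines those of the 2 genes as if they varied independently, though both were read on the same 4 arrays. When single arrays were left out this value was lowest, at -0.46, with SD30_LD7 replicate 2 dropped and highest, at 0.20, with SD30_LD7 replicate 1 dropped, so which gene differed more depended on the array left out. JAL33 also lay closer to the floor set on low intensities, which was 23.5. Raising the floor to the 40th percentile put both shifted arrays under it and gave a JAL33 difference of -0.89, while that of JAL34 stayed at -1.80.

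**Figure D2:**
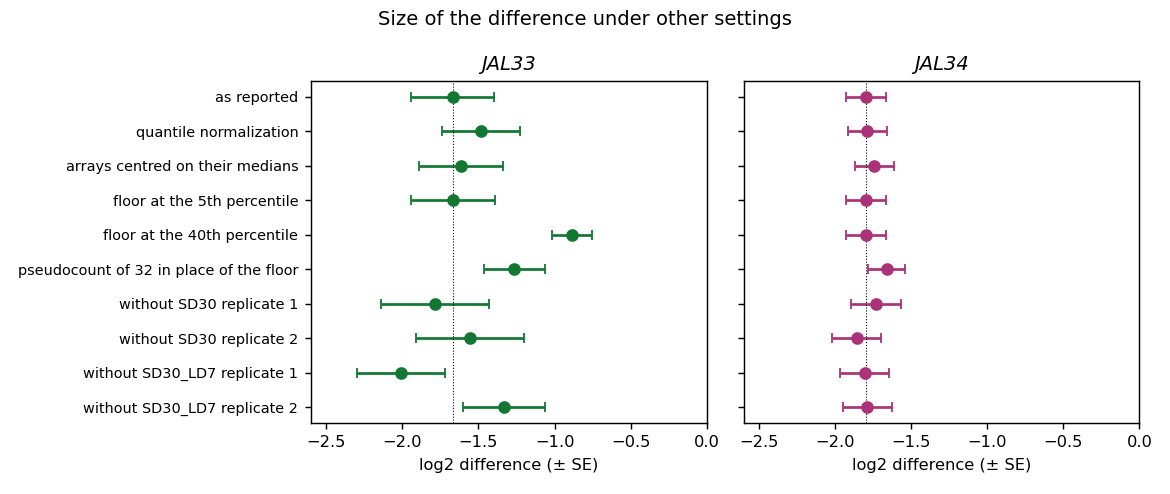
Log2 difference of JAL33 (left) and JAL34 (right), shifted minus short days, as reported and under other settings of scaling, floor and arrays; bars are the SE of the limma model and the dotted line is the reported value. JAL33 ranges from -2.01 without SD30_LD7 replicate 1 to -0.89 with the floor raised to the 40th percentile, and JAL34 from -1.86 to -1.66.

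Among the 15922 probe sets tested, the median log2 difference was -0.002. JAL34 had the 228th and JAL33 the 265th largest fall, and 1.43 and 1.66 percent of the probe sets had a larger one. A difference of at least 2-fold downward was found for 652 probe sets, 4.09 percent of those tested. The pair therefore stood in the lower tail of the array as a whole, well short of its end, a place that their choice on this contrast in part fixed.

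**Figure D3:**
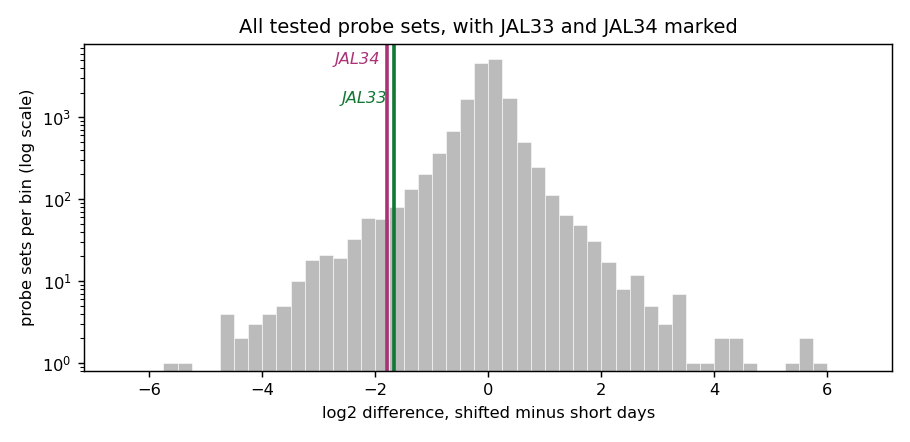
Number of probe sets (log axis) by log2 difference, shifted minus short days, in bins of 0.25 for the 15922 probe sets tested; vertical lines mark JAL33 at -1.67 and JAL34 at -1.80. Both lie in the lower tail, JAL33 as the 265th largest fall.

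Other lectin genes of the family were taken from a list of 10 genes defined by the symbols and synonyms of the gene table. Lectin genes without such a name were not looked for. The annotation names 2 of these, JAL22 (AT2G39310) and JAL23 (AT2G39330), which lie close together on chromosome 2, and both passed the test, 1 lower and 1 higher. Over all probe sets tested 15.0 percent were called, 8.20 percent lower and 6.80 percent higher, in limma with an adjusted p below 0.05. The family's median log2 difference of -0.81 over these 2 genes says little, since they went opposite ways.

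JAL22 had intensities of 164 and 190 in SD30 and of 23.9 and 18.2 in SD30_LD7. It fell, with a log2 difference of -2.90 ± 0.30 (limma, adjusted p = 3e-05). One shifted array lay under the floor, so the size is understated. Raising the floor to the 40th percentile gave -0.79, still called. JAL23 had 713 and 535 in SD30 and 1455 and 1527 in SD30_LD7. It rose by 1.27 ± 0.14 (limma, adjusted p = 4.2e-05), or 2.41-fold. Among JAL33, JAL34 and the 2 listed lectin genes with values, JAL23 was thus the 1 that was higher after the shift. With no filter on dim probe sets the JAL23 call was lost (limma, adjusted p = 0.13), when 1 of the 2 lectin calls remained. That fit called 152 of all 22746 probe sets, against 2388 of 15922 with the filter, so calls were lost over the whole array. An alternative chosen after seeing the data had no filter and a pseudocount of 32 in place of the floor. There JAL23 was called (limma, adjusted p = 0.0019), so without a filter its call differed between these 2 ways of treating low intensities. No other floor was run without a filter. Levels of PBP1 (JAL30), JAL31, MLP-300B, JR1 (JAL35), MBP1, MBP2, JAX1 and NSP1 were not analysed here.

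The list of genes known from ER bodies and the PYK10 complex held 18 genes, of which the annotation names 6, JAL22 and JAL23 included. In limma 5 of the 6 passed, 3 lower and 2 higher, against the 8.20 and 6.80 percent over all probe sets, with a median of -0.59. Another 2 listed genes share a probe set paired with several genes, which was not used.

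PYK10 (AT3G09260), the beta-glucosidase that the lectins bind, had 2380 and 2396 in SD30 and 224 and 276.5 in SD30_LD7. Its fall of -3.26 ± 0.12 on the log2 scale (limma, adjusted p = 1e-08), or 9.60-fold, left 10.5 percent of the short day mean. The log2 differences of JAL33 and JAL34 were smaller in size than that of PYK10, a comparison that was not tested because the pair was chosen on this contrast. NAI2 (AT3G15950), a protein needed to form ER bodies, had 1408 and 1401 before and 795 and 929 after the shift. It fell by 0.71 ± 0.11 (limma, adjusted p = 0.00098) and kept 61.4 percent of its level.

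NAI1 (AT2G22770), the bHLH transcription factor required for ER bodies in seedlings, had 171 and 209 in SD30 and 179 and 105.0 in SD30_LD7. These groups overlapped, and its difference of -0.47 ± 0.26 did not pass (limma, adjusted p = 0.28). Dropping SD30_LD7 replicate 1 gave -0.85 and dropping SD30_LD7 replicate 2 gave -0.08, so its size depended on which shifted array was kept. AT1G54020, a listed gene with no symbol of its own in the gene table, went the other way, from 321 and 420 to 1906 and 2318. It rose by 2.52 ± 0.14 (limma, adjusted p = 2.5e-07), or 5.72-fold. Keeping dim probe sets in the fit, with the floor, left 2 of the 6 genes called, PYK10 and JAL22. That fit called 152 of all 22746 probe sets. NAI2 and AT1G54020 then had adjusted p of 0.13 and 0.084 in limma. With dim probe sets kept and a pseudocount of 32 in place of the floor, 5 of the 6 were called, and 1558 of all 22746 probe sets. In that fit NAI2 and AT1G54020 had adjusted p of 0.0077 and 0.00014 in limma.

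**Figure D4:**
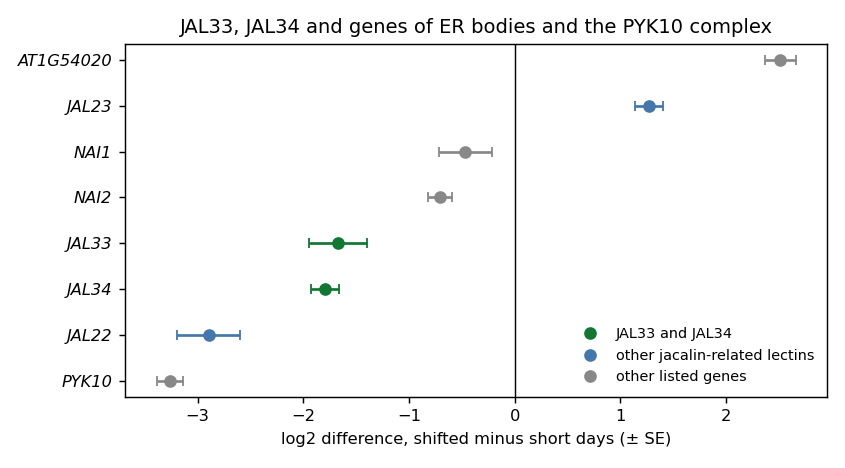
Log2 difference, shifted minus short days, of JAL33 and JAL34 (green), the other jacalin-related lectins (blue) and other genes of the ER body and PYK10 list (grey), ordered by size; bars are the SE of the limma model from 2 arrays per group. PYK10 at -3.26 and JAL22 at -2.90 lie below the pair, and JAL23 at 1.27 and AT1G54020 at 2.52 lie on the other side of 0.

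On chromosome 3 the pair belongs to a run of related genes. Before JAL33 the gene table lists NSP3, NSP1 and NSP4, which encode specifier proteins of glucosinolate breakdown, then PBP1, JAL31 and MLP-300B, and JR1 follows JAL34. Of the 10 protein-coding genes before JAL33 and the 10 after JAL34, the annotation names 4 and 3 were bright enough to test. IQD26, a gene of the calmodulin-binding IQ-domain family 3 genes after JAL34, had 272 and 262 in SD30 and 637 and 613.5 in SD30_LD7. It rose by 1.23 ± 0.13 (limma, adjusted p = 4.5e-05). It was the 1 of 3 tested neighbours that passed, where 15.0 percent of all probe sets were called and 6.80 percent were called higher.

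The other tested neighbours showed smaller differences. AT3G16370, 9 genes before JAL33, had 0.28 ± 0.10 (limma, adjusted p = 0.086). UGT88A1, a glycosyltransferase gene 6 after JAL34, had 0.15 ± 0.14 (limma, adjusted p = 0.58) with groups that overlapped. AT3G16530 was at 23.3 and 38.0 in SD30 and at 6.9 and 5.6 in SD30_LD7, too dim to test. The median over the 3 tested neighbours was 0.28, and none of the 3 had a lower value after the shift. This does not cover AT3G16530, which was lower on both shifted arrays but near or under the floor. Nor does it cover neighbours without values, among them the adjacent lectin genes PBP1, JAL31, MLP-300B and JR1.

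**Figure D5:**
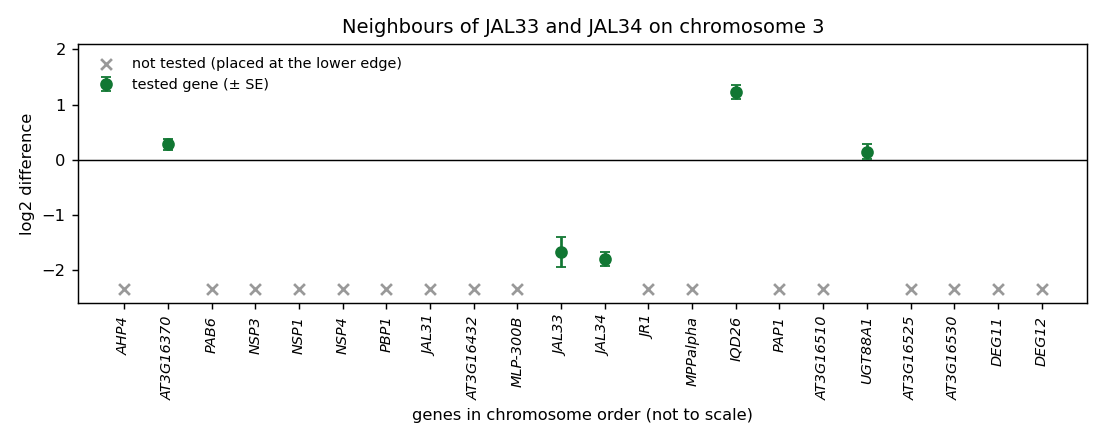
Log2 difference, shifted minus short days, of the genes around JAL33 and JAL34 in chromosome order, with the SE of the limma model as bars; crosses at the lower edge mark genes that were not tested. The pair at -1.67 and -1.80 are the low points, and IQD26 at 1.23 is the high point among the 5 genes tested or described.

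The genes whose values over the 4 arrays were most like those of each lectin were found by the root mean square difference of log2 values, each gene centred on its own mean, over 8695 other tested genes. This measure reads the same contrast that chose the pair and describes only the shape over 4 arrays. Nearest to JAL33 were bZIP42, a bZIP transcription factor gene, at 0.02, AT1G70810 at 0.05 and the serine carboxypeptidase-like gene scpl35 at 0.10. bZIP42 had 292 and 343 in SD30 and 122 and 79.9 in SD30_LD7, with the same order of arrays as JAL33. Nearest to JAL34 were the class V chitinase gene ChiC at 0.02, AT3G18560 at 0.04 and AT2G29360 at 0.04. Of these ChiC and AT3G18560 lay under the floor on both shifted arrays, so that their likeness was in part set by the floor and ChiC was at least 3.55-fold lower. AT2G29360 had 154 and 129 before and 41.3 and 40.9 after the shift, above the floor throughout.

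JAL33 and JAL34 were not each other's nearest. Their distance was 0.27, which placed JAL34 67th of 8695 in likeness to JAL33 and JAL33 87th in likeness to JAL34. The measure includes gaps between replicates, which in SD30_LD7 were 0.68 for JAL33 and 0.02 for JAL34. Their group differences, -1.67 and -1.80, lay closer together.

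Markers of other cell types were read beside the lectin values. Of 6 green leaf markers the annotation names 3, and their summed intensity was 9035 to 11200 in SD30 and 6848 to 6983 in SD30_LD7. PORB, of chlorophyll synthesis, fell by 0.79 ± 0.11 (limma, adjusted p = 0.00035), and LHCB4.3, an antenna protein, rose by 1.72 ± 0.16 (limma, adjusted p = 1.7e-05). RCA, Rubisco activase, had -0.42 ± 0.15 (limma, adjusted p = 0.085). Leaving out SD30 replicate 2 gave -0.68 (limma, adjusted p = 0.041) and leaving out SD30 replicate 1 gave -0.16 (0.54). With dim probe sets kept in the fit, and the floor, the PORB and LHCB4.3 calls were lost (limma, adjusted p = 0.086 and 0.051). Only 152 of all 22746 probe sets were called in that fit. With a pseudocount of 32 in place of the floor, and dim probe sets kept, both were called (limma, adjusted p = 0.0045 and 0.00079). Of 10 markers of epidermis, trichomes, guard cells and myrosin cells it names 4, with sums of 576 to 658 in SD30 and 501 to 523.5 in SD30_LD7. SPCH fell by 0.57 ± 0.15 (limma, adjusted p = 0.026), a call kept in 6 of 14 alternatives. It was lost without any 1 of the 4 arrays, when the log2 difference was -0.68 to -0.46. It was also lost with the floor at the 40th percentile (limma, adjusted p = 0.056) and without an intensity trend (limma, adjusted p = 0.065). With dim probe sets kept it was lost with the floor and with the pseudocount (limma, adjusted p = 0.18 and 0.066). TRY and FMA did not pass, and MUTE was under the floor on all arrays. Of 5 root markers PYK10 alone is named, with the values given above, and none of 4 vascular markers is. The part of these differences in the lectin values was not tested.

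Genes of jasmonate synthesis and wounding, which were listed because JR1 is a jasmonate-responsive lectin gene and dissection wounds tissue, and genes of specifier proteins and myrosinases, were not analysed here, as the annotation names none of the 18 and none of the 14.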

How the data were processed

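The table deposited by the authors gives an intensity on a linear scale for each of 22746 probe sets, and 64 controls, on each array. With 2 percent trimmed from either end, the array means were 500.033 to 500.036, so the deposited intensities had been scaled to a common level. In the sources used here no software is named. The array's annotation gives 1 gene for 13513 probe sets, several for 503 and none here for 8730. Symbols come from the TAIR10.1 gene table, which also gave synonyms and the order of genes.

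Intensities below 23.5, the 20th percentile, were raised to that floor before log2 was taken. The dimmest 30 percent of probe sets were dropped, which left 15922. The shifted group was set against the short day group in limma (version 3.58.1, R 4.3.3), using lmFit and then eBayes with trend on, two-sided, with 2 residual and 9.9 prior degrees of freedom. Adjustment was by Benjamini-Hochberg over all 15922, with a threshold of 0.05. JAL33 and JAL34 received no p-value. The limma step was also run on simulated normal values with the spread of the fit and no floor. That run could not show how the step behaves with floored values. Figures used matplotlib 3.10.9 in Python 3.11.15.

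The genes and the gene lists were chosen with earlier results of these data known. From each list the genes that passed were named, then others in locus order, and for likeness the 3 nearest genes to each lectin. No list was tested as a set. The alternatives were 2 other scalings, 2 other floors, a pseudocount of 32, 2 other filters, no intensity trend, the replicate block, leaving out each array, and averaging the probe sets of a gene.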

Additional observations from a re-analysis of the deposited data

How the results depend on the processing

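The alternative with no filter and a pseudocount of 32, and the alternatives for likeness, were chosen after seeing the data. JAL33 had -0.89 when the floor was raised to the 40th percentile, above both shifted arrays, and -1.26 with a pseudocount in place of the floor. JAL34 had -1.66 with the pseudocount. The JAL34 difference less that of JAL33 was -0.91 at that higher floor. Leaving out single arrays gave -2.01 to -1.33 for JAL33, -1.86 to -1.73 for JAL34 and -0.46 to 0.20 for the difference between them. All probe sets gave 2388 calls (1083 higher, 1305 lower), 152 with no filter, 1558 with no filter and a pseudocount, 1532 without an intensity trend and 1058 to 1494 without single arrays, when the lone array of a group is assumed to vary like the other group. With arrays centred on their medians 55.4 percent of the calls were higher, against 45.4 percent. No filter, with 22746 probe sets tested, left 1 lectin call of 2 and 2 calls of 6 in the ER body list. No filter with a pseudocount kept 2 lectin calls and 5 in the ER body list. Dropping the dimmest 50 percent left 1 lectin call, as JAL22 was then not tested. Leaving out single arrays left 2 lectin calls, 5 in the ER body list and 1 among the neighbours. With the replicate block JAL33 kept -1.67 and JAL34 -1.80, and 2741 probe sets were called. The block changed no lectin, ER body or neighbour call, while the leaf marker RCA passed with it (limma, adjusted p = 0.024). The labels do not say that equal numbers share a planting. The difference of replicate 1 minus replicate 2 correlated at 0.0466 between the groups over 15922 probe sets. This value cannot tell whether samples of equal number were grown or handled together. Each lectin had 1 probe set, so the mean over probe sets could not differ. Of the 3 genes most like JAL33, 3 remained with either other scaling or the floor at the 5th percentile, 1 with the pseudocount and 0 at the higher floor. Of those of JAL34, 2 remained with either other scaling, 1 with a floor at the 5th percentile, and 0 remained with the other floor or the pseudocount.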
